A study of Mus musculus with 10 samples.

Results

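The long noncoding RNAs Malat1, Neat1, Gas5, Snhg9, Snhg11 and Meg3 were examined in single hepatocytes, the main cells of the liver parenchyma, by taking the gene rows with their lower-case symbols (malat1, neat1, gas5, snhg9, snhg11 and meg3) from 10 tables of unique molecular identifier (UMI) counts. A UMI tags 1 captured RNA molecule. Of 14812 gene rows, 5 of the 6 were found, and gas5 was not analysed here. All libraries came from male C57BL/6 mice, 3 months old, on chow without food restriction, whose liver cells were freed with collagenase under ketamine and xylazine, enriched on Percoll and captured with the 10x 3′ chemistry, version 2. The groups differ in zeitgeber time (ZT), hours in the light-dark cycle, and the 10 libraries are named by time and letter: ZT0 A, B and C; ZT6 A and B; ZT12 A, B and C; ZT18 A and B. How many animals stand behind a library is not given in the labels, so p-values measure the spread between libraries, which may be partly technical.

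Malat1 is an abundant nuclear RNA that collects in nuclear speckles, bodies rich in splicing factors. Neat1 is the RNA scaffold on which paraspeckles, another kind of nuclear body, are built from RNA-binding proteins. Gas5, Snhg9 and Snhg11 are host genes: small nucleolar RNAs (snoRNAs), which guide the chemical modification of ribosomal RNA, are cut from their introns, and the spliced host RNA that is left over is often short-lived. Meg3 is expressed from the maternal copy of the imprinted Dlk1-Dio3 region.

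The 10 libraries held 710 to 2860 cells each, 18378 in all, and 1454623 to 7144803 UMIs in total, with 1588 to 2662 UMIs in the median cell. The mitochondrial share of a cell's UMIs ran from 8.70% to 34.4%. Of the hepatocyte markers 5 of 6 had a row, and together they took 29520 to 61500 of every 1000000 UMIs of a library, a scale called CPM here. Marker lists of other cell types summed to lower levels. The endothelial list took 52.4 to 88.5 CPM over the libraries. Those for cholangiocytes (the cells of bile ducts) and erythroid cells took 5.80 to 117.8 CPM and 72.2 to 360.5 CPM. The lists for lymphocytes and macrophages reached at most 0.61 and 11.2 CPM. Of these, 4 of 6 lymphocyte markers (Cd3d, Cd3e, Cd79a and Nkg7) and 2 of 7 macrophage markers (Clec4f and Csf1r) had no UMI in any cell. On the endothelial list Clec4g and Ptprb had none either, and its sum does not show which other genes carried it.

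In the GENCODE M21 annotation of GRCm38, the assembly also called mm10, a name that stands among the submitters' processing notes, Malat1 lies on chromosome 19 at 5795690-5802672, minus strand, and Neat1 on the same strand at 5824708-5845478. The pair is 22035 bases apart, and both are typed as long intergenic noncoding RNAs. Snhg9 is a 2-exon gene at 24719531-24719965 on the minus strand of chromosome 17, and the snoRNA Snora78 lies inside its intron. The whole Snhg9 gene falls within the span of Rps2, a ribosomal protein gene on the opposite strand, and 14 of its 183 exon bases are also exonic in Rps2. Snhg11 lies on chromosome 2 at 158375638-158386145, plus strand. The annotation types Snhg11 as protein-coding and Snhg9 as antisense. Meg3 lies on chromosome 12 at 109541001-109571726, plus strand, and the noncoding gene Gm26906 covers 3096 of its bases on the minus strand. Whether reads were counted by strand is not given in the sources used here. Whether reads of Snhg9 and Rps2, or of Meg3 and Gm26906, were kept apart where they overlap is thus also not known here.

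Sequences of 2 members are given from reference annotation, and they are not the counted reads. The spliced Snhg9 RNA is given because its level set 2 libraries apart from all others, with the 20 bases around its splice junction in capitals. The window around the Snhg9 start is given because it overlaps the RefSeq start window of Rps2, which runs in the other direction. In GENCODE the span of Rps2 begins outside the Snhg9 window, at 24718116. Capitals mark the 197 bases that the Snhg9 window shares with the window of Rps2 (chr17:24719916-24720112). The last is the longest run of A in the 6983-base Malat1 transcript, in capitals with 20 bases on either side (chr19:5795968-5796019, minus strand). It is shown because the labels name polyA RNA as the molecule, and Malat1 is known to end in a structured stretch of RNA instead of an added poly(A) tail.
Snhg9 spliced RNA: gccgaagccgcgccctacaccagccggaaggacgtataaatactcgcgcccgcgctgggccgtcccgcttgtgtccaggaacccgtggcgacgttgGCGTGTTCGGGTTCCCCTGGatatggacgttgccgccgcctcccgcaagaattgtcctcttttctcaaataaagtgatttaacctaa
Snhg9 start window: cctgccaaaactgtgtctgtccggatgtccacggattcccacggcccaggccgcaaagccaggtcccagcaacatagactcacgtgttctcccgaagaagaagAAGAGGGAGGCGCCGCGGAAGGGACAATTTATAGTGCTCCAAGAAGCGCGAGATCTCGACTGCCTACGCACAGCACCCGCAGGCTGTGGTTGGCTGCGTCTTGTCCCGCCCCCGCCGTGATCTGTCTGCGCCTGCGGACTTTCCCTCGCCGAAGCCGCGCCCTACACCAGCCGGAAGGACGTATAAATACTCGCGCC
Malat1 run of A: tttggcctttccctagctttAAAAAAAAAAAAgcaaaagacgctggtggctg
The run of 12 A ends 298 bases before the 3′ end of the Malat1 transcript. In the longest Neat1 transcript, of 20771 bases, the longest run of A had 7 bases, and in Snhg9 it had 3. The transcripts are from GENCODE and the start window is from RefSeq (GRCm38.p6), 300 bases on the minus strand (chr17:24719916-24720215). The files do not record at which position of a transcript the counted reads lay.

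Malat1 was by far the most abundant of the 5 RNAs. It held 71928 UMIs over all libraries against 16684 for Neat1, 476 for Snhg9, 79 for Snhg11 and 34 for Meg3. In a 3′ assay these levels are counts per captured end and are not corrected for how well each RNA is captured.

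The first question was whether the RNAs follow the time of day. Malat1 stood at 1081, 1113 and 3978 CPM in ZT0 A, B and C, at 1541 and 887 CPM in ZT6 A and B, at 1869, 672 and 5258 CPM in ZT12 A, B and C, and at 1072 and 916 CPM in ZT18 A and B. The C libraries of ZT0 and ZT12 were the highest, and the levels at the 4 times overlapped. The means were 2057 ± 1664 (SD, n = 3) CPM at ZT0, 1214 ± 462 (n = 2) at ZT6, 2600 ± 2379 (n = 3) at ZT12 and 994 ± 110 (n = 2) at ZT18. In a test of a 24-h rhythm over all genes (edgeR's quasi-likelihood test, 2 degrees of freedom, Benjamini-Hochberg adjustment, threshold 0.05), Malat1 had a log2 amplitude of 0.14, the distance from the mean to the peak, with an adjusted p of 0.971 in edgeR.

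Neat1 stood at 205, 335 and 358 CPM in the ZT0 libraries, at 556 and 601 CPM at ZT6, at 617, 423 and 239 CPM at ZT12 and at 410 and 309 CPM at ZT18. Both ZT6 libraries were above all of ZT0 and ZT18, while the ZT12 libraries spanned nearly the whole range. The mean was 299 ± 82.6 (n = 3) CPM at ZT0 and 578 ± 31.8 (n = 2) at ZT6, the smallest SD of the 4 times. The fitted peak was at ZT8.23 with a log2 amplitude of 0.37, and the edgeR adjusted p was 0.46.

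Snhg9 passed the filter for testing, 3 CPM on average, through ZT0C and ZT12C, where it stood at 47.6 and 43.2 CPM. In the other 8 libraries it lay between 0.69 CPM (ZT12A, 1 UMI) and 3.77 CPM (ZT18A, 12 UMIs). Its edgeR adjusted p for rhythm was 0.932. None of the 3 RNAs that could be tested passed the threshold for rhythm, where 5.14% of 8908 genes did, nor for ZT12 against ZT0 (3.44% of genes) or ZT18 against ZT6 (3.79%). None had an unadjusted p under 0.05 in these 3 edgeR tests. DESeq2 called none, but it gave Snhg9 no adjusted p for rhythm.

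For ZT12 against ZT0 the log2 difference of Malat1 was 0.18 ± 0.58 (SE), and 2 SE on either side reach from -0.97 to 1.34. For Neat1 it was 0.41 ± 0.32, with 2 SE reaching from -0.23 to 1.04. With the library letter as a block, which pairs the 2 times, the difference was 0.04 ± 0.26 for Malat1, with 2 SE reaching from -0.475 to 0.55, and 0.30 ± 0.30 for Neat1, with 2 SE reaching from -0.305 to 0.91. For ZT18 against ZT6 the differences were -0.20 ± 0.71 for Malat1 and -0.62 ± 0.39 for Neat1. Both ZT18 libraries carry index sets with the digit 4, which no other library has, so that digit and ZT18 cannot be told apart.

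**Figure D1:**
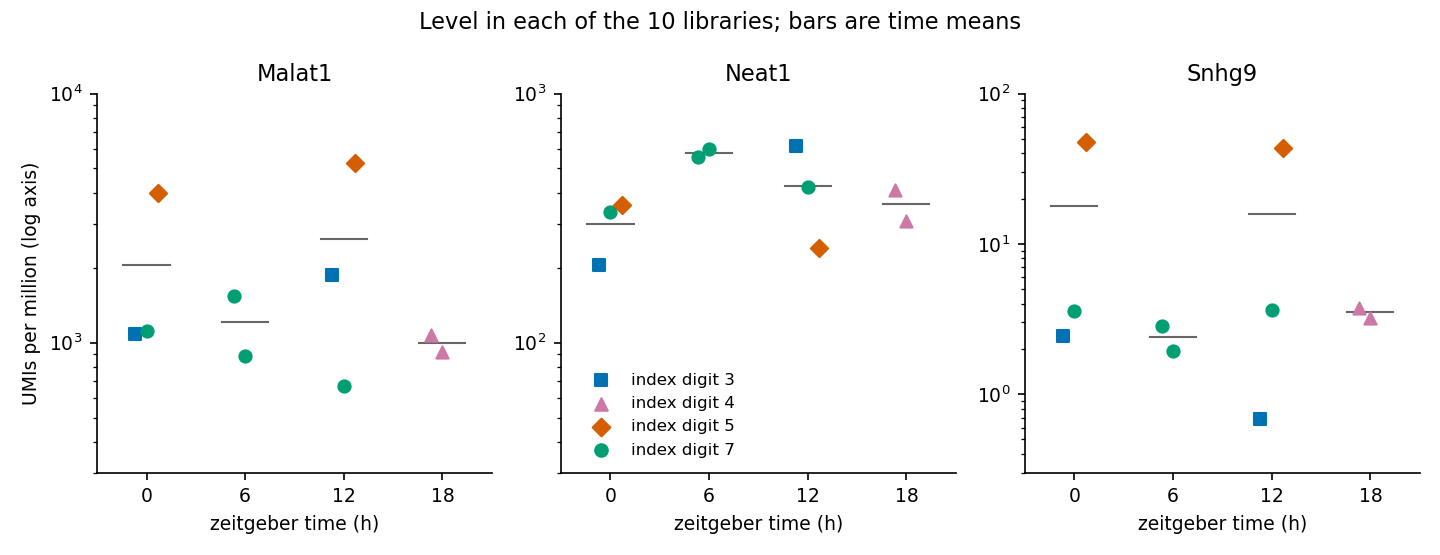
Level of Malat1, Neat1 and Snhg9 in each library (CPM, log axis) against zeitgeber time in hours, with horizontal bars for the means of each time. Colours and shapes give the digit at the end of the library's index label. The 2 libraries with the digit 5 hold 3978 and 5258 CPM of Malat1 and 47.6 and 43.2 CPM of Snhg9, above the other 8 for both RNAs.

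ZT0C and ZT12C are also the only 2 libraries whose 10x index label ends in 5. The label names the index set used for a library, and nothing in the labels says what else these libraries had in common. Snhg9 in the lower of the 2 was 11.4-fold above the highest of the other 8 libraries. For Malat1 the same ratio was 2.13-fold. Of all genes, 8.58% were higher in both digit 5 libraries than in the other 8, and 2.13% were lower in both. The summed endothelial list (Pecam1, Kdr, Stab2, Dpp4, Clec4g and Ptprb) also stood apart there, at 84.8 and 88.5 CPM against 52.4 to 74.8 CPM in the other 8. Clec4g and Ptprb were at 0, and the sum does not show which of the other 4 genes carried the difference. The part of this list in the levels of Malat1 and Snhg9 was not tested.

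Rps2, the gene whose span holds Snhg9, was looked up after this was seen and went the other way. It stood at 402 CPM in ZT0C and 305 CPM in ZT12C against 581 to 872 CPM in the other 8 libraries. Snhg9 gave 11.8 and 14.2 UMIs for every 100 UMIs of Rps2 in the digit 5 libraries and 0.11 to 0.51 in the others. Neat1, at 358 and 239 CPM, was not set apart in these libraries: its values lay inside the range of 205 to 617 CPM of the rest. Without both digit 5 libraries the edgeR adjusted p for rhythm was 0.944 for Malat1 and 0.166 for Neat1. Among the 4 libraries with the digit 7, Malat1 stood at 1113 CPM at ZT0, 1541 and 887 CPM at ZT6 and 672 CPM at ZT12, and Neat1 at 335, 556, 601 and 423 CPM, with 1 library each at ZT0 and ZT12. With the index digit as a block the log2 difference of ZT12 from ZT0 was 0.02 ± 0.25 (SE) for Malat1 and 0.31 ± 0.30 for Neat1, and neither was called.

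In ZT0C 253 of 1795 cells (14.1%, exact 95% interval 12.5% to 15.8%) had a Snhg9 UMI, and in ZT12C 85 of 1139 cells (7.46%, 6.00% to 9.15%) did. These intervals cover counting error only. If every cell of ZT0C held Snhg9 at the same share of its UMIs, 85.8% of cells would be expected to have none, and 85.9% had none. No cell held more than 3. Such counts do not tell RNA of the cells from free RNA caught with them, and the share in a cell type that lacks Snhg9 was not measured. The pericentral, middle and periportal cells of ZT0C held 48.4, 50.0 and 44.1 CPM.

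Across the 10 libraries, the genes whose log2(CPM + 1) followed Malat1 most closely among 4340 others averaging 20 CPM or more were Gmcl1 (Pearson r = 0.97), Ormdl1 (r = 0.96) and Dsp (r = 0.95). Their levels ranged far less, for example from 15.1 to 31.1 CPM for Gmcl1. For Neat1 they were Cutc (r = 0.86), Traf4 (r = 0.84) and Map2k7 (r = 0.84). Malat1 and Snhg9 had r = 0.79, and Malat1 and Neat1 had r = -0.23. All of these are descriptions over 10 libraries, and the 2 digit 5 libraries weigh heavily in those of Malat1.

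The second question was where in the liver lobule the RNAs are found. Blood enters the lobule at the portal vein and leaves at the central vein, and hepatocytes differ along this axis. Cells of each library were ordered by 16 landmark genes, 8 for each end, and split into 3 equal zones, called pericentral, middle and periportal. Malat1 was higher in the periportal than in the pericentral zone in 10 of 10 libraries, and so was Neat1. In every library both RNAs rose from the pericentral over the middle to the periportal zone.

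Malat1 had 1223 ± 1008 (SD, n = 10) CPM in pericentral, 1659 ± 1249 in middle and 2631 ± 2419 in periportal cells. The SDs are wide because libraries differ in level, and within a library the log2(CPM + 1) difference ranged from 0.48 (ZT12A, 1564 against 2185 CPM) to 1.78 (ZT6B, 385 against 1325 CPM). With the library as a block the edgeR log2 fold change was 1.17 ± 0.08 (SE), which is 2.25-fold, with an edgeR adjusted p of 1.09e-13. Neat1 had 279 ± 99.3, 365 ± 125 and 561 ± 222 CPM in the 3 zones. Its log2 difference ranged from 0.63 (ZT0B) to 1.59 (ZT6B), and the edgeR log2 fold change was 1.09 ± 0.08, 2.13-fold, with an edgeR adjusted p of 1.73e-13. For both RNAs the gap between zones was larger than its spread between libraries.

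These 2 of 3 RNAs tested were called higher periportally, where 11.9% of 8907 genes were. By size of the fold change they ranked 109 and 124 of those genes. Snhg9 had a log2 fold change of -0.19 ± 0.20 and an edgeR adjusted p of 0.564, with 2 SE reaching from -0.58 to 0.21. It passed the filter here only through ZT0C and ZT12C. They held 101 and 24 of its 172 pericentral UMIs and 81 and 25 of its 133 periportal UMIs. Over the 10 libraries its log2(CPM + 1) difference ran from -2.31 to 1.06.

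The share of cells with a UMI differed as well. After each cell had been thinned to 1000 UMIs, so that depth was equal, 49.5% ± 22.7 (SD, n = 10) of pericentral and 66.6% ± 17.3 of periportal cells had a Malat1 UMI. For Neat1 the shares were 21.8% ± 8.15 and 33.8% ± 10.3. Both shares were higher periportally in 10 of 10 libraries. Over 8 layers in place of 3 zones, the mean level of Malat1 relative to its library rose from 0.59 ± 0.16 in layer 1, next to the central vein, to 1.42 ± 0.22 in layer 8, next to the portal vein, and Neat1 rose from 0.63 ± 0.12 to 1.46 ± 0.22. For Neat1 the climb was steepest past the middle: it stood at 0.80 in layer 4, 0.93 in layer 5 and 1.22 in layer 6. Between the last 2 layers the mean of Malat1 changed from 1.41 to 1.42, and Malat1 had its highest layer at the portal end in 4 of 10 libraries, Neat1 in 6.

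**Figure D2:**
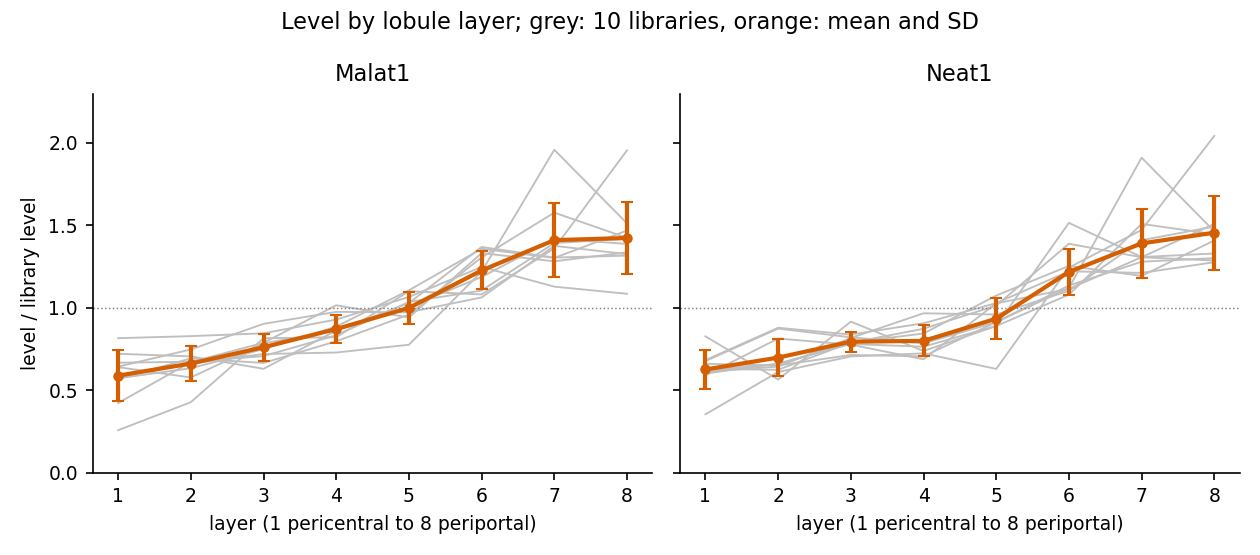
Level of Malat1 and Neat1 in 8 equal layers of cells ordered from pericentral (1) to periportal (8), divided by the level of the whole library. Grey lines are the 10 libraries and orange points with bars are means and SD; means climb from 0.59 to 1.42 for Malat1 and from 0.63 to 1.46 for Neat1.

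Other measures differed between the zones too. The median mitochondrial share was 11.1% to 23.6% in pericentral and 13.3% to 26.2% in periportal cells and was higher periportally in 10 of 10 libraries. With the zones formed within terciles of that share in each library, the log2 fold change was 1.14 ± 0.09 for Malat1 and 1.06 ± 0.08 for Neat1. The difference was thus nearly as large, though the share can still differ inside a tercile. Without both digit 5 libraries, and without this balance, the log2 fold change was 1.11 ± 0.08 and 1.05 ± 0.07. The 5 cholangiocyte markers reached 1.57 to 22.8 CPM in pericentral and 13.04 to 218 CPM in periportal cells (higher in 10 of 10 libraries), and their part in the result was not tested. The 5 erythroid markers with a row were lower periportally in 10 of 10 libraries, at 61.9 to 98.1 against 76.2 to 139 CPM. Median UMIs per cell were 1541 to 3089 pericentrally and 1577 to 2720 periportally, and were higher periportally in 7 of 10 libraries. No zone comparison was balanced for UMIs per cell.

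The zone difference was also read at each time. For Malat1 the mean log2(CPM + 1) difference was 1.16 ± 0.17 (SD, n = 3) at ZT0, 1.30 ± 0.68 (n = 2) at ZT6, 0.86 ± 0.36 (n = 3) at ZT12 and 1.05 ± 0.04 (n = 2) at ZT18. For Neat1 it was 0.92 ± 0.32, 1.30 ± 0.40, 0.85 ± 0.13 and 0.94 ± 0.05. The test of whether the zone difference follows a 24-h rhythm called neither (edgeR adjusted p of 0.888 and 0.898, unadjusted 0.222 and 0.234), nor Snhg9. It called 0.0337% of genes, 3 of 8907 (545 at an unadjusted p under 0.05), and DESeq2 called none.

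The next comparison set cells with a high mitochondrial share against cells with a low one. RNA left in damaged cells tends to be nuclear and mitochondrial, which is why this share is widely used as a sign of cell quality. Each library was split into terciles by the share of mitochondrial UMIs, and levels here are CPM of the non-mitochondrial UMIs. The median share was 9.88% to 19.9% in the low and 15.7% to 29.4% in the high terciles.

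Neat1 was higher in the high tercile in 9 of 10 libraries, at 550 ± 214 (SD, n = 10) against 452 ± 177 CPM. The edgeR log2 fold change was 0.28 ± 0.07 (SE), or 1.22-fold, with an edgeR adjusted p of 0.00443. ZT12B was the exception, with 534 CPM in the low and 460 CPM in the high tercile. Malat1 was higher in 5 libraries and lower in 5, at 2215 ± 1725 against 2158 ± 1812 CPM, with an edgeR log2 fold change of 0.11 ± 0.09 and an adjusted p of 0.475. Snhg9 had -0.23 ± 0.20 and an edgeR adjusted p of 0.544. One of 3 RNAs was thus called higher, where 6.81% of 9232 genes were.

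The high tercile held more periportal cells, 42.0% to 54.4% of it against 12.1% to 26.0% of the low tercile. When the terciles were formed within zones, so that both held the same zones, the Neat1 difference was -0.02 ± 0.07 with an edgeR adjusted p of 0.935, and the call was lost. Malat1 then became lower in the high tercile, by 0.22 on the log2 scale (SE 0.07, edgeR adjusted p of 0.0499, just inside the threshold, where 4.65% of 9230 genes were called lower), in 7 of 10 libraries. Without both ZT18 libraries the Neat1 difference was 0.22 ± 0.08 and its edgeR adjusted p 0.063. The summed endothelial list was higher in the high tercile in 10 of 10 libraries (72.3 to 106 against 49.9 to 106 CPM, with Clec4g and Ptprb at 0). Which of its genes carried this is not shown, and its part was not tested.

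**Figure D3:**
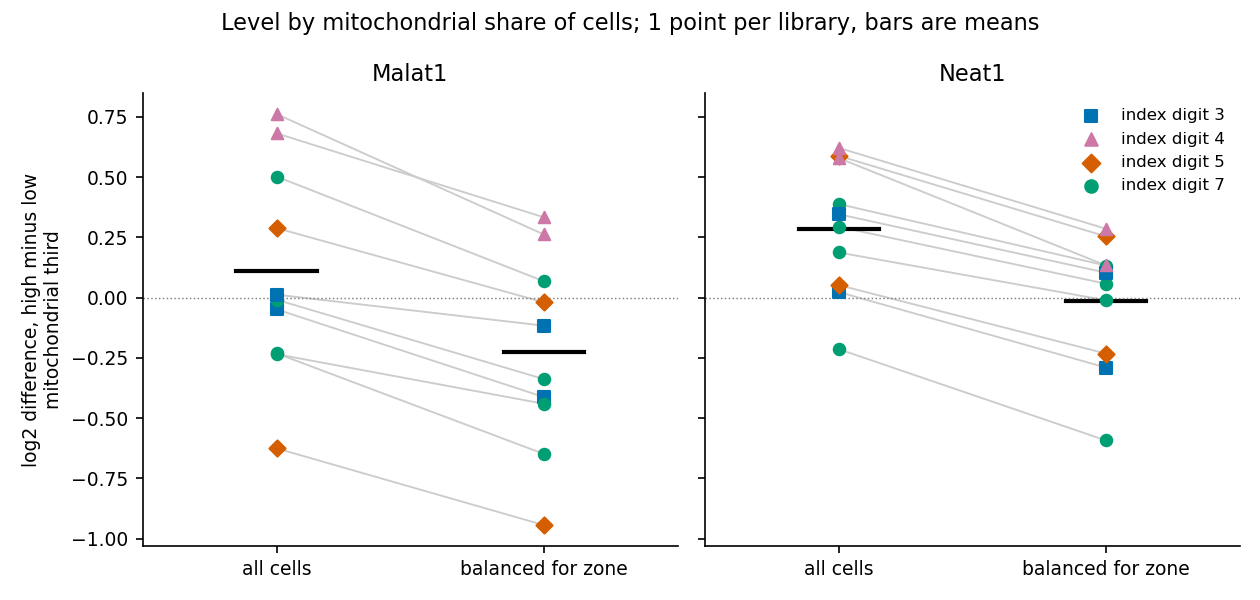
Difference in log2(CPM + 1) between the tercile of cells with the highest and the tercile with the lowest mitochondrial share, for Malat1 and Neat1, over all cells and with the terciles balanced for lobule zone. Each library is 1 point (colour and shape give the index digit), grey lines join the same library and black bars are means. The mean for Neat1 goes from 0.29 to -0.02, and for Malat1 from 0.11 to -0.23.

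By time, the Malat1 difference between the terciles was -0.06 ± 0.56 (SD, n = 3) at ZT0, -0.12 ± 0.16 (n = 2) at ZT6, 0.02 ± 0.26 (n = 3) at ZT12 and 0.72 ± 0.06 (n = 2) at ZT18. Both ZT18 libraries, at 0.68 and 0.76, were above the highest of the other 8 (0.50, ZT0B). They are also the only libraries with the index digit 4, so time and digit cannot be told apart here. The test of whether the difference follows a 24-h rhythm gave Malat1 an unadjusted p of 0.0112 and an edgeR adjusted p of 0.717, so it did not pass, where 0.238% of 9232 genes did. With the terciles balanced for zone the ZT18 libraries stood at 0.33 and 0.26, still above the other 8 (highest 0.07, ZT0B), and the edgeR adjusted p was 0.999. In the unbalanced test with no filter on low genes the edgeR adjusted p of Malat1 was 0.0295, where 42 of 14062 genes were called. Neat1 at ZT18 stood at 0.60 ± 0.03 (n = 2), with an edgeR adjusted p of 0.981 for this test. The erythroid markers took 78.8 to 961 CPM in the low terciles and 73.5 to 163.5 CPM in the high terciles. They were higher in the high tercile in 3 of 10 libraries, and their part was not tested.

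A different effect of the mitochondrial share in the 2 outer zones was called for none of the 3 RNAs, and for 0% of 9217 genes (400 at an unadjusted p under 0.05; DESeq2 also called 0). For Malat1 the mean difference between the terciles was -0.47 ± 0.58 (SD, n = 10) within pericentral and -0.16 ± 0.47 within periportal cells. The log2 difference of these differences was 0.30 ± 0.16 (SE) in edgeR, with an unadjusted p of 0.0621 and an edgeR adjusted p of 0.999.

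Depth per cell moved with both RNAs. In the tercile of cells with the most UMIs Neat1 was higher than in the tercile with the fewest in 9 of 10 libraries, by 0.65 ± 0.55 (SD, n = 10) on the log2(CPM + 1) scale, and Malat1 in 8 of 10, by 0.54 ± 0.66. Malat1 reached 606 and 1997 CPM in the low and high depth terciles of ZT18A and 679 and 1564 CPM in those of ZT18B. ZT0C went the other way, with 5418 and 4435 CPM. With the mitochondrial terciles balanced for UMIs per cell the Neat1 difference was 0.40 ± 0.07 (SE, edgeR adjusted p of 3.21e-05), and it was above 0 in 10 of 10 libraries.

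The last comparison was between single cells. Malat1 was unevenly shared among the cells of every library. In ZT6B 58.1% of cells had no Malat1 UMI, where 22.9% would be expected if all cells held it at the same share of their UMIs. In ZT0C 10.6% had none against 0.14% expected, while single cells held up to 297. In the 8 libraries other than ZT0C and ZT12C the observed share without a UMI was 1.94 to 2.59 times the expected one. In ZT0C and ZT12C, where almost no cell was expected to lack Malat1, it was 76.7 and 38.5 times. For Neat1 it was 1.05 to 1.42 times over the 10 libraries. This ratio also depends on the level of an RNA, so it does not rank the unevenness of Malat1 against that of Neat1.

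The 10% of cells richest in Malat1 held 31.7% (ZT12C) to 63.4% (ZT6B) of its UMIs. For Neat1 the richest 10% held 39.6% (ZT12A) to 54.4% (ZT18B). Cells without Malat1 were found in all zones: in ZT6B 71.9% of pericentral, 58.1% of middle and 44.3% of periportal cells had none. At equal depth the share of cells with a Malat1 UMI ran from 33.5% in ZT6B to 93.6% in ZT12C.

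**Figure D4:**
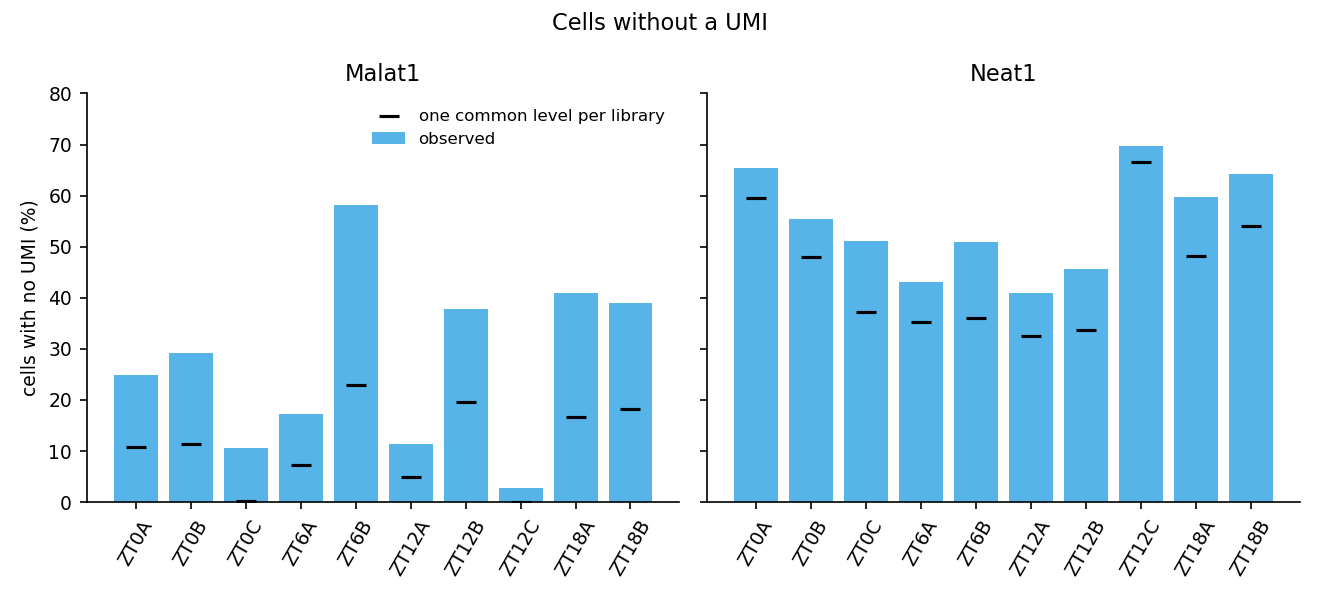
Share of cells without a UMI of Malat1 or Neat1 in each library (bars, percent) and the share expected if every cell of that library held the RNA at the same fraction of its UMIs (black marks). Observed shares for Malat1 reach 58.1% in ZT6B against 22.9% expected, and for Neat1 69.7% in ZT12C against 66.5%.

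Cells with a Malat1 UMI were then compared with cells that had none, after thinning to 1000 UMIs, in CPM of the non-mitochondrial UMIs other than Malat1. Neat1 was higher in cells with Malat1 in 10 of 10 libraries, at 556 ± 254 (SD, n = 10) against 320 ± 147 CPM, and the log2(CPM + 1) difference was 0.81 ± 0.37. It ranged from 0.35 in ZT6A to 1.60 in ZT0C. Split by zone, it was above 0 in 28 of 30 combinations of library and zone. Among 4327 genes averaging 20 CPM or more, the difference of Neat1 exceeded that of 79.4% of genes in ZT12C, where 73 cells lacked Malat1, and of 99.1% in ZT18B. The median gene differed by -0.00 to 0.08.

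The mRNAs of Mlxipl, Gcgr and Nlrp6, which are known to be held back in liver nuclei, differed by 0.21 ± 0.44, 0.10 ± 0.19 and 0.03 ± 0.28 (SD, n = 10) and were higher in 7, 7 and 4 of 10 libraries. Albumin, an abundant cytoplasmic mRNA, differed by 0.15 ± 0.14. Neat1 thus stood apart from these 4 mRNAs in the size of its mean, which is a description without a test. The median mitochondrial share was 11.96% to 24.73% in cells with Malat1 and 13.02% to 24.68% in cells without. Before thinning, cells with Malat1 were deeper than cells without in 9 of 10 libraries, for example at 2856.5 against 2170 UMIs in the median cell of ZT0C, and ZT12A was the exception (1706 against 1821). The part of depth in the Neat1 difference was not tested beyond the thinning.

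**Figure D5:**
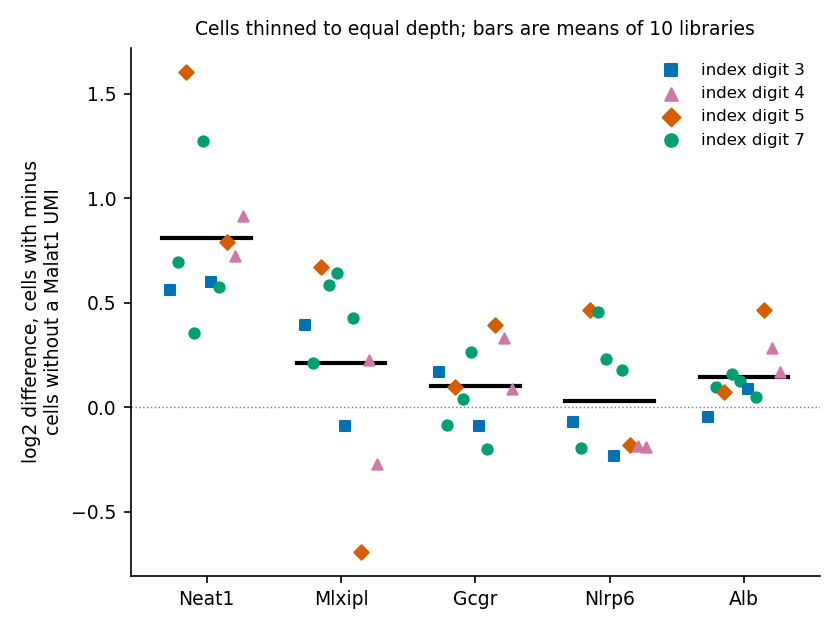
Difference in log2(CPM + 1) between cells with and without a Malat1 UMI, after thinning each cell to 1000 UMIs, for Neat1, 3 mRNAs held back in liver nuclei and albumin. Each point is 1 of 10 libraries (colour and shape give the index digit) and black bars are means; all 10 Neat1 points are above 0, with a mean of 0.81.

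Snhg11 and Meg3 were too rare to pass the filter. Snhg11 ranged from 0.45 CPM (ZT0B, 3 UMIs) to 5.80 CPM (ZT6B, 15 UMIs). Of its 79 UMIs 43 were in pericentral, 21 in middle and 15 in periportal cells, the opposite order to Malat1 and Neat1. In the fit with no filter on low genes its log2 fold change from pericentral to periportal was -1.39 ± 0.46 (SE), with an edgeR adjusted p of 0.0198, where 8.30% of 14080 genes were called lower periportally. Its CPM was lower in the periportal zone in 10 of 10 libraries, in each on a few UMIs. In ZT18A (2 and 2 UMIs) and ZT18B (1 and 1) the counts of the 2 zones were equal. The thinned share of cells with a Snhg11 UMI was higher periportally in 3 of 10 libraries. No test of time or of mitochondrial share called Snhg11 in the fit with no filter.

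Meg3 had 34 UMIs in 24 cells. A single cell of ZT0C held 11 of them, and no other cell held more than 1. That cell had 1770 UMIs, 62 of them albumin and none from the 7 stellate cell markers. None of the 24 cells had a stellate marker UMI, while they held 1117 albumin UMIs together. ZT12B had none in 2469 cells, and the 3 counts that a count of 0 allows correspond to a share of cells with a UMI of 0.12% and a level of 0.42 CPM. The exact 95% interval of that share reaches 0.149%. Of all Meg3 UMIs 20 were pericentral, 1 was in the middle and 13 were periportal, 11 of those in the single cell. Its edgeR adjusted p for zone with no filter was 0.683.

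Genes of related function were set beside them. Of the 18 other noncoding snoRNA host genes listed, 5 had a row and all were tested. Snhg18, a host gene at 3.90 CPM, was higher periportally, with a log2 fold change of 0.87 ± 0.28 (SE, edgeR adjusted p of 0.0186), and the other 4 were not called. With the zones balanced for the mitochondrial share its difference was 0.77 ± 0.30 and the call was lost (edgeR adjusted p of 0.0643). Of the 5, 3 were lower in cells with a high mitochondrial share, where 8.59% of 9232 genes were: Snhg6 by -0.47 ± 0.09 (edgeR adjusted p of 9.31e-05), Epb41l4aos by -0.51 ± 0.11 (0.000492) and Snhg12 by -0.47 ± 0.16 (0.0339). All 3 stayed called with the terciles balanced for zone. The median of the 5 was -0.47 against -0.01 over all genes.

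Genes of proteins that bind Neat1 and of nuclear speckle factors were set against the 11.9% of all genes called higher periportally, and their shares were near it. Of 13 paraspeckle proteins 1 was called, the cleavage factor subunit Cpsf6 (log2 fold change 0.30 ± 0.11, edgeR adjusted p of 0.0337). Of 16 speckle and splicing proteins 2 were, Pnisr (0.72 ± 0.10, edgeR adjusted p of 1.52e-06) and Pnn (0.59 ± 0.14, 0.00185), both proteins of nuclear speckles. The list medians were -0.01 and 0.03 against -0.01 over all genes. By mitochondrial share 2 of the 16 speckle and splicing proteins were lower, where 8.59% of 9232 genes were. They were the speckle proteins Srrm1 (-0.32 ± 0.10) and Son (-0.22 ± 0.07), at edgeR adjusted p of 0.016 and 0.0279. No paraspeckle protein was called. Balanced for zone, Srrm1 was still called and Son was not (-0.19 ± 0.07, edgeR adjusted p of 0.0839).

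Over time Tardbp, which encodes the RNA-binding protein TDP-43, was called, with a log2 amplitude of 0.67, a fitted peak at ZT20.8 and an edgeR adjusted p of 0.00382. Its ZT12 level was below ZT0 by 0.90 on the log2 scale (SE 0.17, edgeR adjusted p of 0.0095). For ZT18 against ZT6, Tardbp rose by 1.005 ± 0.21 and the splicing factor Srsf1 rose by 1.20 ± 0.29, at edgeR adjusted p of 0.0201 and 0.0355. None of the 5 noncoding host genes, 10 protein-coding host genes or 8 decay factors was called for rhythm, and at the share of 5.14% over all genes lists of this size would hold 1 call or none. Nonsense-mediated decay degrades many spliced host RNAs. Of its 8 listed factors 1 was lower in the high mitochondrial tercile, where 8.59% of 9232 genes were. This was Upf3a (-0.60 ± 0.20, edgeR adjusted p of 0.0322). That call was lost with the terciles balanced for zone (-0.51 ± 0.19, edgeR adjusted p of 0.0842).

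Of the 10 protein-coding snoRNA host genes tested for zone, Gnb2l1 was higher (0.19 ± 0.06, edgeR adjusted p of 0.0199) and the translation factor gene Eif4a2 lower (-0.37 ± 0.07, 4.86e-05), shares no larger than those over all genes (11.9% higher and 12.7% lower). Among imprinted genes, 6 of 12 had a row and 2 passed the filter. The long noncoding RNA Kcnq1ot1, an imprinted transcript that acts in the nucleus, was higher periportally by 1.22 ± 0.12 (edgeR adjusted p of 5.76e-10) and higher in the high mitochondrial tercile by 0.56 ± 0.12 (0.000432). Like Neat1 it was not called for the mitochondrial share once the terciles were balanced for zone. Of 13 other long noncoding RNAs 7 had a row and 3 were tested, and none was called for zone, time or mitochondrial share. The nearest for zone was Lncpint, at 0.74 ± 0.28 (edgeR adjusted p of 0.0502). Mlxipl, Nlrp6 and Gcgr had zone differences of -0.07 ± 0.09, 0.02 ± 0.07 and 0.07 ± 0.08 in edgeR and were not called.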

How the data were processed

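UMI counts per gene and cell were deposited for each of the 10 libraries, and were read as raw counts since all are whole and their sums differ from cell to cell. Cell Ranger and the builds hg19 and mm10 are named in the submitters' processing notes, with no version; the filters on cells and genes and the use of strand are not given in the sources used here. The columns of cells carry running numbers and no barcodes, so barcodes shared between libraries could not be counted. Groups come from the sample titles, and the index digit from the 10x index label.

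The members and companion lists were chosen with earlier results of these data known. UMIs were summed per library, or per library and tercile of its cells, and tested with edgeR 4.0.16 (R 4.3.3; glmQLFit and glmQLFTest, TMM factors 0.81 to 1.17) for genes averaging 3 CPM or more. Zone and mitochondrial tests have the library as a block; the mitochondrial share leaves the members out of its total, and mitochondrial genes are out of the totals there. The 16 landmark genes are out of the counts of zone calls. SE is the size of a log2 fold change over the root of its F. CPM differences per library use a pseudocount of 1. Scripts were tested on simulated counts. From each companion list up to 4 called genes with the smallest adjusted p are named, and for Malat1 and Neat1 the 3 genes most like each. A companion gene that this rule would name is not reported here.

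Same-letter libraries of ZT0 and ZT12 deviated together from their time means (r of 0.24, 0.43 and 0.48 for A, B and C), so the letter was taken to pair these 2 times; it matches the index digit there. Library pairs of 1 time were no copies (chi-square per degree of freedom 5.76 to 68.8). Doublets were not called; alternatives include DESeq2 1.42.0, other filters and scalings, and leaving out libraries or the 5% of cells with most UMIs.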

Additional observations from a re-analysis of the deposited data

How the results depend on the processing

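Of the 3 RNAs tested, 2 (Malat1 and Neat1) were called higher periportally under all 20 alternatives for zone, with log2 fold changes from 0.91 to 1.24 and from 0.88 to 1.13. None was called for rhythm, ZT12 against ZT0, ZT18 against ZT6, zone by time or mitochondrial share by zone under any alternative. DESeq2 gave Snhg9 no adjusted p for rhythm or for mitochondrial share by time. For mitochondrial share the number called was 1 (Neat1) and fell to 0 without both ZT18 libraries; it was 1 with terciles balanced for zone, but then Malat1 in place of Neat1. For mitochondrial share by time it was 0 and became 1 (Malat1) with no CPM filter, where 42 of 14062 genes were called. The cause of these changes was not tested.

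Several directions reversed, all of uncalled values except those balanced for zone, where the Neat1 call was lost and Malat1 was called. For ZT12 against ZT0 Malat1 (0.18) became -0.085 without ZT0A, -0.11 without ZT0B, -0.76 without ZT12C (range with 1 library left out -0.76 to 0.99) and -0.017 in the low mitochondrial tercile, and Snhg9 (-0.40) became 2.04 without ZT0C, 0.045 without ZT12A and 0.22 without ZT12B (range -2.62 to 2.04). For ZT18 against ZT6 Malat1 (-0.20) became 0.18 without ZT6A (range -0.51 to 0.18) and 0.26 in the high mitochondrial tercile, where Snhg9 (0.57) became -0.12. For mitochondrial share Malat1 (0.11) became -0.024 without both ZT18 libraries and -0.22 balanced for zone, and Neat1 (0.28) -0.018 balanced for zone. For share by zone Neat1 (-0.09) became 0.0068 without ZT18B (range -0.18 to 0.0068) and 0.058 without both ZT18 libraries. Snhg9 fell under the filter for time and zone without both digit 5 libraries, an alternative chosen after seeing the data.

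With the library letter as a replicate block 0 of the 3 were called for rhythm, ZT12 against ZT0 or ZT18 against ZT6, and the block changed no call; for ZT12 against ZT0 it gave Malat1 0.04 ± 0.26 (SE). Over all genes the calls moved by more than 1.5 times for rhythm (458; 228 to 792), ZT12 against ZT0 (306; 147 to 767), ZT18 against ZT6 (338; 50 to 730), zone by time (3; 0 to 52), mitochondrial share (1422; 856 balanced for zone), share by time (22; 1 to 47) and share by zone (0; up to 6). Depth limits Snhg11, Meg3 and, outside 2 libraries, Snhg9.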
